A study of Mus musculus with 10 samples.

Results

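The comparison described here is of Myc-CaP cells in which Arid1a was knocked out with Myc-CaP cells that carry an empty vector. It takes 4 of the 10 RNA-seq samples of the series: Myc-CaP EV libraries 1 and 2 and Myc-CaP Arid1a KO libraries 1 and 2. Genes were kept by level alone, with a mean of at least 0.5 TPM over the 4 libraries, which left 13974 of 48897 rows of the table. Myc-CaP is a cell line of strain FVB from a prostate carcinoma of a mouse whose prostate epithelium carries a c-Myc transgene under a probasin promoter, so every library shares that transgene. The knockout was made with a lentiviral CRISPR vector and its control with the same kind of vector without a guide, and no drug or other treatment separates the groups. The labels do not say whether the libraries of a group are separate cultures, lines or clones, so the p-values measure the spread between these libraries, which may be technical. Growth in culture is read from the labels, which give all samples of the series the same culture text and the same text on sorting mouse epithelium.

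ARID1A is the large DNA-binding subunit of the BAF form of the SWI/SNF complex, which uses ATP to move nucleosomes and keeps enhancers and promoters open to transcription factors. ARID1B is its paralogue and takes its place in a complex, never beside it. The gene is often inactivated in carcinomas. Among the programmes that can be followed in epithelial cells are the interferon-stimulated genes, which factors such as STAT2 and IRF9 switch on and whose products restrict viruses and present antigen, the keratins that mark luminal and basal cells of the prostate, and the genes of DNA replication and mitosis.

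Depth was estimated from the values themselves, because a value in TPM, which scales reads by gene length to the same sum in each library, is a whole multiple of what 1 read is worth. The libraries held about 20.4 and 18.4 (in units of 1e+06 reads) with the empty vector and 19.3 and 18.2 after knockout. In all, 25200 genes had reads in at least 1 library. A count of 0 allows up to 3 reads, which for a gene of 2000 bases is between 0.171 and 0.197 TPM, and this limit covers counting error only. Across tested genes the log2 values of libraries of the same group correlated with r of 0.9886 and 0.9894, against 0.9807 to 0.9844 between groups, and genes are not independent replicates.

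The cell type was checked against its markers. Reads per gene are lower limits here, because a factor shared by the reads of a gene cannot be seen. Epcam, Cdh1, Krt18 and Pbsn, which mark prostate epithelium, had between 0 and 13 reads in each library. Vim, an intermediate filament of mesenchymal cells, was at 729 and 761 TPM, while Zeb1 and Cdh2 reached 9 reads at most. The defining markers of leukocytes, endothelium and neuroendocrine cells (Ptprc, Tyrobp, Pecam1, Cdh5, Kdr, and Chga) had 0 to 3 reads in each library. The highest of their values was 0.179 TPM, for Chga in empty vector library 1. Library 2 of each group stood apart by fibroblast and smooth muscle transcripts. Their 14 markers summed to 10.05 and 12.1 TPM in libraries 1 and to 57.9 and 29.2 TPM in libraries 2, and Col1a1, the main chain of type I collagen, had 11 and 888 reads with the empty vector and 17 and 336 after knockout. Knockout library 2 alone held the basal keratins Krt5, Krt14 and Krt17, with 11, 79 and 42 reads, against 0 to 11 reads in the other libraries. Fewer cells of a type and less RNA per cell cannot be told apart in bulk samples.

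Arid1a (chromosome 4, 133679008 to 133756769, minus strand, GRCm38) was lower in both knockout libraries. It measured 60.5 and 60.98 TPM with the empty vector, from 4420 and 3919 reads, and 39.5 and 40.3 TPM after knockout, from 2721 and 2555 reads. Each knockout library lay below each empty vector library, and the transcript was not lost. The difference was -0.59 ± 0.06 (SE, n = 2 against 2) on the log2(TPM + 1) scale, on which changes of weakly expressed genes come out too small, with a 95% interval of -0.74 to -0.44 and a limma adjusted p of 0.0102. A guide that shifts the reading frame need not remove the message, and the table holds a single value per gene, so the edit itself could not be seen. Of the 24 SWI/SNF subunits tested, only Arid1a and Smarcd3 passed the test (8.33%, near the 6.43% called over all genes). Smarcd3, an accessory subunit best known from heart and muscle, rose from 90.9 and 91.7 to 155 and 159.8 TPM, a difference of 0.78. Arid1b was at 19.7 and 18.98 TPM with the empty vector and 22.9 and 23.6 TPM after knockout, a difference of 0.25 that did not pass. The ATPases Smarca4 and Smarca2 differed by -0.10 and 0.02, and the other tested subunits lay between -0.22 and 0.05. The subunits and partners of PRC2, the complex that methylates H3K27, held 0 calls among 12 tested genes by limma, with a median of -0.13.

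Across the transcriptome, 899 of 13974 genes passed a limma adjusted p of 0.05 (6.43%). Of these, 635 were higher after knockout (4.54% of the genes tested) and 264 were lower (1.89%). Rises were also larger than falls, with a median size of 0.78 against 0.54 on the log2 scale, and 211 rises against 48 falls reached a 2-fold change. By the study's thresholds, an unadjusted p under 0.05 and a 1.5-fold change, 877 genes passed (6.28%), 645 higher and 232 lower. Both knockout libraries lay on the same side of both empty vector libraries for all 899 called genes, and for 51.5% of all genes tested. The median over all genes tested was -0.014, and their 5th and 95th percentiles were -0.44 and 0.63. With a single library in a group the count by limma was 70 without empty vector library 1, 76 without empty vector library 2, 47 without knockout library 1 and 50 without knockout library 2, on the assumption that the lone library varies like the other group. The study's thresholds gave 929 to 1011 genes in the same fits, and the direction of every main call tested was the same in each of them.

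**Figure D1:**
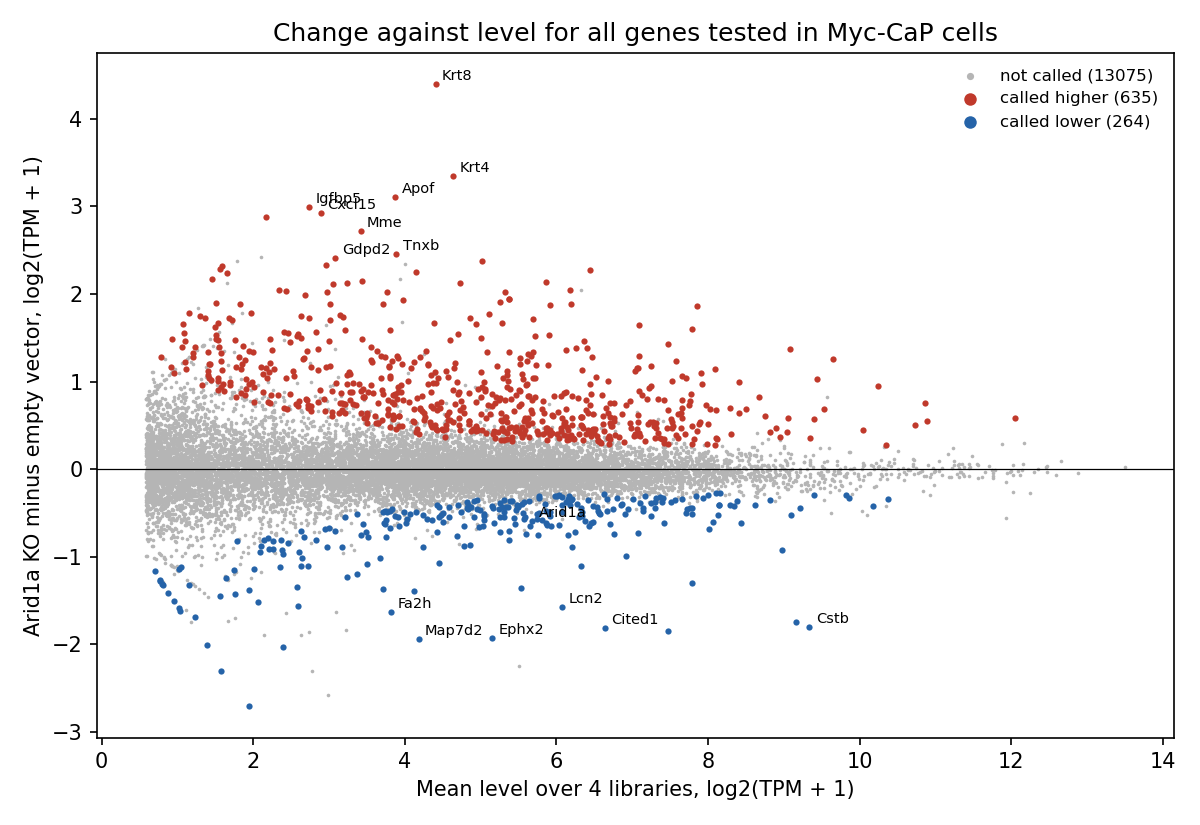
Each point is 1 of 13974 genes; the x axis is its mean level over the 4 libraries and the y axis the knockout mean minus the empty vector mean, both in log2(TPM + 1). Red points are the 635 genes called higher, blue points the 264 called lower and grey points the rest; the rises reach further from 0 than the falls, up to 4.40 for Krt8.

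The share of genes called depended on the level. Of 1429 genes with a mean of 0.5 to 1 TPM, 0.770% were called, and of 1801 genes at 100 TPM and over 10.3% were called. Called genes of the lowest class had a median change of 1.28 and those of the highest class 0.51, so modest changes in genes of low level can have been missed. The parts of depth, of the number of libraries and of the log2(TPM + 1) scale in this limit were not tested. By type, 7.46% of 10905 protein-coding genes, 3.00% of 799 long noncoding RNAs and 0.382% of 524 pseudogenes were called. Calls were spread over the genome, from 5.33% of the genes of the X chromosome to 8.88% of those of chromosome 19, and the median change of a chromosome lay between -0.034 and 0.013.

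The 15 largest rises among genes with a mean of at least 5 TPM were led by keratins. Krt8 (chromosome 15, 101996698 to 102004482, minus strand), a keratin of luminal cells, had 17 and 11 reads with the empty vector and 601 and 533 after knockout, which is 1.07 and 0.79003 and 40.3 and 38.8 TPM. It was low in both empty vector libraries and far higher in both knockout libraries, with a difference of 4.40 ± 0.12 (SE) and a limma adjusted p of 0.00135. Krt18, the partner with which keratin 8 forms filaments, had 0 and 0 reads with the empty vector and 5 and 7 after knockout, so it stayed below the level at which genes were tested. Krt4, a keratin of stratified epithelium, rose from 3.0998 and 3.83 to 41.3 and 47.2 TPM (3.34). The RefSeq window around the start of Krt8, from 250 bases before to 50 after, is shown because this gene had the largest change. It holds no match, in lower case throughout, to GAAANNGAA, the core of the interferon-stimulated response element, or to TGANTCA, the AP-1 site, on either strand.

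Krt8, chr15:102004293-102004592, GRCm38.p6, minus strand: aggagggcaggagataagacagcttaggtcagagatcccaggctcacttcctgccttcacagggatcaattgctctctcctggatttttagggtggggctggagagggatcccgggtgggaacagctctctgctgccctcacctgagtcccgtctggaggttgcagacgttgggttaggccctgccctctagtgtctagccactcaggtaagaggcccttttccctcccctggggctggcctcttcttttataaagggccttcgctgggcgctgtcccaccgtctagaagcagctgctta

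The other large rises were of varied function. Igfbp5, which binds insulin-like growth factors, went from 0.292 and 0.709 to 10.7 and 11.03 TPM (3.00), and Cxcl15, a chemokine of mouse epithelium that attracts neutrophils, from 1.02 and 0.488 to 11.8 and 12.4 TPM (2.92). For both genes the knockout libraries lay close together and far above the empty vector libraries. Apof, an apolipoprotein of HDL, rose by 3.10, from 2.48 and 1.68 to 25.3 and 25.2 TPM. In GENCODE M21, Apof ends 405 bases before Stat2 on the same strand. In RefSeq, Apof runs from 128268699 to 128271250, past the GENCODE start of Stat2 at 128270559. Which gene model the deposited values used is not stated. Stat2 rose by 0.98, and whether reads of either gene were counted in the other was not tested. Mme, the membrane peptidase neprilysin, rose by 2.71, Tnxb, a matrix glycoprotein, by 2.46, the phosphodiesterase family gene Gdpd2 by 2.40, the tight junction gene Cldn10 by 2.25 and Anxa8, an annexin of squamous epithelium, by 2.13. Padi2, which converts arginine in proteins to citrulline, went from 9.15 and 9.74 to 53.6 and 52.6 TPM (2.37). Hba-a1, a haemoglobin alpha chain, went from 31.2 and 26.4 to 144 and 141 TPM (2.27) while Hba-a2, Hbb-bs and Hbb-bt, the other adult globin genes, were listed at 0 in all 4 libraries. Ifit3, Zbp1 and Ly6c1 completed the 15, and the first gene outside them, Mx1, also an interferon-stimulated gene, had the same rounded change as Anxa8, 2.13.

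The 15 largest falls were smaller and held enzymes of lipid metabolism and acute-phase proteins. Ephx2, the soluble epoxide hydrolase, went from 53.2 and 57.2 to 12.7 and 14.99 TPM (-1.93), and Fa2h, which hydroxylates fatty acids, from 21.9 and 18.9 to 5.83 and 5.91 TPM (-1.64). Both knockout libraries lay below both empty vector libraries for each of these genes, as for all called falls. Map7d2, a microtubule-binding protein, had the largest fall, -1.94. Cited1, a transcriptional coregulator, fell by 1.81, Cstb, the cathepsin inhibitor cystatin B, by 1.80, and Piwil4, a PIWI protein of the germ line, by 1.37. Prom2, a membrane protein of epithelial protrusions, Epn3, an epsin of endocytosis, and Tmem54 had differences between -1.36 and -1.20. Lcn2, Orm1, Orm3 and Lrg1, secreted acute-phase proteins, fell by 1.11 to 1.58 on the log2 scale, and the last of the 15, Lrg1, had the same rounded change as the first gene outside them, -1.11.

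**Figure D2:**
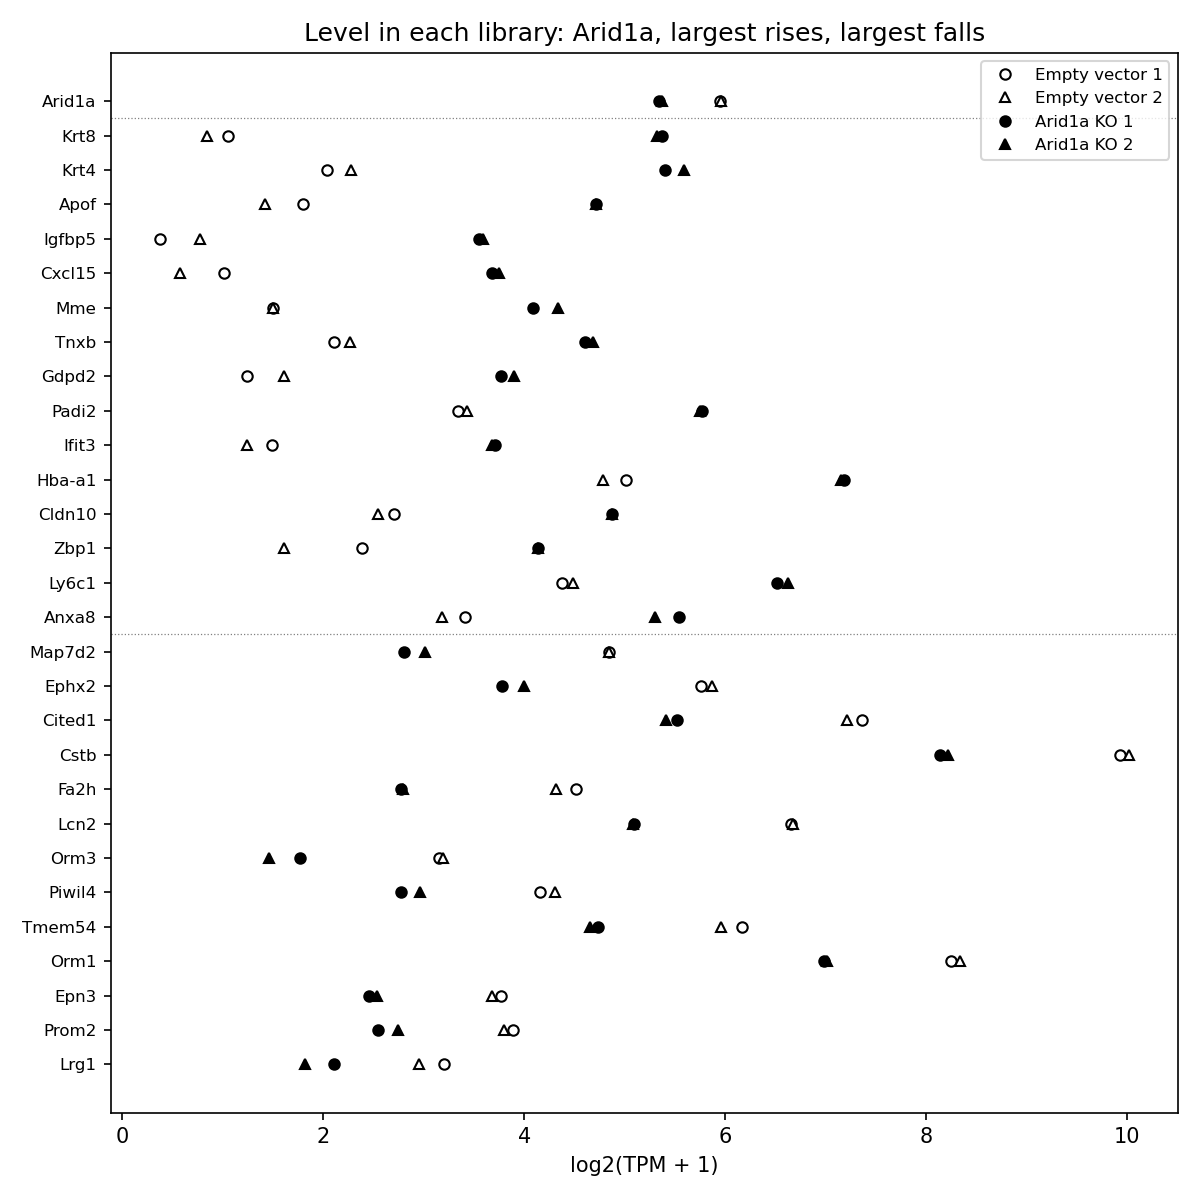
Level of Arid1a, of the 15 largest rises and of 13 of the 15 largest falls in each of the 4 libraries, on the log2(TPM + 1) scale; each symbol is 1 library, in the colour of its group. In every row both knockout libraries lie on the same side of both empty vector libraries, which the choice of genes required.

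Among the gene lists examined, the interferon-stimulated effectors held the most calls. Of 50 effectors tested, 43 rose and 1 fell, with a median change of 1.03, against 4.54% and 1.89% over all genes. All 14 tested members of the guanylate-binding protein (GBP) and immunity-related GTPase (IRG) families, which attack membranes around intracellular pathogens, rose, with a median of 1.27. Of 23 genes of MHC class I presentation, 14 rose and 1 fell, with a median of 0.58. Together with the lists of interferon signalling and nucleic acid sensing below, these genes made up 80 of the 635 rises (12.6%). The median over effectors was 0.95 in knockout library 1 and 1.02 in knockout library 2, each against the empty vector mean. Leaving out a library kept the median between 0.92 and 1.08, but limma then called 6 effectors without knockout library 1, 7 without knockout library 2 and 13 without either empty vector library.

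Among the antiviral effectors, Ifit3, an inhibitor of the translation of foreign RNA, had 42 and 28 reads with the empty vector and 266 and 239 after knockout, or 1.797 and 1.36 and 12.1 and 11.8 TPM. It rose by 2.33 ± 0.14 (SE), with a limma adjusted p of 0.00347, and its close copy Ifit3b, with which it may share reads, by 2.04. Isg15, a ubiquitin-like modifier, rose from 312 and 288 to 822 and 738 TPM (1.37), and Usp18, which removes it from proteins, from 96.8 and 92.2 to 250.3 and 264 TPM (1.43). Bst2 (tetherin, which holds budding virions at the membrane) went from 829.8 and 832 to 1596 and 1608 TPM (0.95) and was the most abundant effector. The summed level of the effectors was 3605 and 3401 TPM with the empty vector and 6832 and 6473 after knockout. In each of these genes the knockout libraries were both above the empty vector libraries, as in all called rises. Oligoadenylate synthetases, which make the messenger that activates RNase L, rose from 0.72 for Oas1c to 1.89 for the related Oasl2. Mx1, an antiviral dynamin-like GTPase that the annotation lists as a transcribed pseudogene, went from 2.41 and 2.596 to 14.4 and 14.2 TPM (2.13), and Zbp1, a sensor of Z-form nucleic acid, from 4.22 and 2.04 to 16.6 and 16.5 TPM (2.14). Ifi27l2a rose by 2.05, from 23.5 and 31.3 to 106 and 125 TPM, while its relative Ifi27 was the single effector that fell, from 93.6 and 89.1 to 65.8 and 67.8 TPM (-0.45). Ifit2, Isg20, Trim25, Mov10, Slfn9 and Ifitm2 did not pass, with differences between -0.16 and 0.56. Ifi44l and Parp12 were listed at 0 in all libraries.

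The promoters of Ifit3, Ifit3b and Ddx60 are shown because these had the largest changes among the called effectors for which a RefSeq window was available. Capitals mark matches to GAAANNGAA on either strand, so that the reverse complement of these letters is also capitalised. The positions are those of the RefSeq start, and Ifit3 and Ifit3b hold 3 matches each at the same spacing.

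Ifit3, chr19:34583279-34583578, GRCm38.p6, plus strand: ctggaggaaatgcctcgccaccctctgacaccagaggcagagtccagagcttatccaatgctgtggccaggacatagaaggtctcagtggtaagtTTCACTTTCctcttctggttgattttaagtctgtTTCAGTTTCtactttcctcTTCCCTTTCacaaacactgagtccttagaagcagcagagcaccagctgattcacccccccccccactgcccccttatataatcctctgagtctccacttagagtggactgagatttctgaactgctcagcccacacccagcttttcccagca

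Ifit3b, chr19:34607707-34608006, GRCm38.p6, plus strand: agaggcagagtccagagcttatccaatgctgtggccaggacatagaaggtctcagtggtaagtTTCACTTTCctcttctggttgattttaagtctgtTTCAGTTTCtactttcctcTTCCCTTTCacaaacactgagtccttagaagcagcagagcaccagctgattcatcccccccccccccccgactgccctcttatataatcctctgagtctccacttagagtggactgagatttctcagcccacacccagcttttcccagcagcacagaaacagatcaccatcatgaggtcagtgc

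Ddx60, chr8:61927837-61928136, GRCm38.p6, plus strand: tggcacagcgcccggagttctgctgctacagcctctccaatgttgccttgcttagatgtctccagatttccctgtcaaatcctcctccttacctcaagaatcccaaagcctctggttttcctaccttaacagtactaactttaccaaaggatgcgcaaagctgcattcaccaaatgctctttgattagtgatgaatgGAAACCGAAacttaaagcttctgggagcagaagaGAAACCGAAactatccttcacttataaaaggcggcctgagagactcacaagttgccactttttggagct

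Ddx60, a helicase of the RIG-I pathway whose window holds 2 matches, rose from 4.63 and 6.53 to 22.6 and 25.1 TPM (1.93). Over the lists, 55.2% of 58 windows of the effectors and 83.3% of 12 windows of the GBP and IRG genes held the motif, against 8.56% of 32851 windows of all genes and 6.89% of the windows of the genes tested. The share was 13.8% among all genes called higher and 5.58% among those called lower. A match to these letters is a description of the window and not a measured site.

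The rises also lay side by side on the chromosomes. Runs of adjacent tested genes that all rose included Gbp5, Gbp7, Gbp3 and Gbp2 on chromosome 3 (142496934 to 142638008), Gbp9, Gbp4, Gbp10 and Gbp6 on chromosome 5 (105076464 to 105295871), Oas2, Oas3, Oas1c and Oas1b on chromosome 5 (120730333 to 120824163), Psmb9, Tap1, Psmb8 and Tap2 on chromosome 17 (34182030 to 34216321) and Ifit3, Ifit3b, Ifit1bl2 and Ifit1 on chromosome 19 (34583119 to 34650009). These are families of related genes, so some reads may have been shared between copies. Of the GBP genes, Gbp9 rose most, from 2.78 and 3.32 to 11.7 and 13.7 TPM (1.76), and Gbp3, the most abundant, went from 21.8 and 24.7 to 72.6 and 84.4 TPM (1.71). Of the IRG genes, Tgtp1 went from 1.75 and 1.94 to 8.53 and 8.62 TPM (1.75) and Ifi47 from 0.5097 and 0.258 to 3.85 and 2.94 TPM (1.67). Every knockout library exceeded every empty vector library in all 14 genes. The groups were apart in this way in all 899 called genes and in 51.5% of all genes tested. Several of them are low, however, and limma called 1 or 2 of the 14 when any of the 4 libraries was left out and 9 of the 9 with a mean of at least 5 TPM.

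In the antigen presentation pathway, subunits of the immunoproteasome, tapasin and Tap1 had the largest rises. Psmb8 and Psmb9, catalytic subunits of the immunoproteasome, rose by 1.34 and 1.12, and Tap1, which carries peptides into the endoplasmic reticulum, by 1.11. Tapbp (tapasin), which loads them on class I molecules, went from 82.8 and 81.2 to 187 and 171 TPM (1.12). B2m, the light chain of class I, was far more abundant and went from 1509.6 and 1557 to 2225 and 2282 TPM (0.56). The heavy chains H2-K1 and H2-D1 rose by 0.53 and 0.35, and because class I heavy chains are close copies their reads may be split. Nlrc5, the transactivator of class I genes, was at 0.982 and 1.18 TPM with the empty vector and 2.22 and 1.75 TPM after knockout (0.52) and did not pass. Calr, the chaperone calreticulin, fell from 1344 and 1306 to 1000.1 and 976 TPM (-0.42). Limma called 15 of these genes with all libraries, and 0 without empty vector library 1, 2 without empty vector library 2, 0 without knockout library 1 and 1 without knockout library 2.

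Of 20 interferon signalling genes tested, 5 rose and 0 fell by limma, with a median of 0.17, and the ligands were hardly detected. Irf7, the transcription factor that amplifies interferon expression, went from 65.01 and 64.7 to 201 and 209 TPM (1.64 ± 0.05, SE), with a limma adjusted p of 0.00135. Stat2, a transducer of the type I receptor, went from 13.3 and 11.3 to 23.9 and 26.4 TPM (0.98), and Irf9, its DNA-binding partner, rose by 0.40. Jak2, a kinase of cytokine receptors, rose by 0.88. The receptor chains Ifnar1, Ifnar2, Ifngr1 and Ifngr2 did not pass, with differences of at most 0.35. Ifnb1, interferon beta, had 0 and 3 reads with the empty vector and 2 and 1 after knockout, and Ifna2, Ifna4, Ifnl2, Ifnl3 and Ifng had 0 reads in all libraries, so no difference in a ligand was detectable at this depth. Of 20 sensors of foreign nucleic acid and their adaptors, 4 rose and 0 fell by limma, with a median of 0.21. These were Ddx58 (RIG-I), from 49.3 and 47.5 to 90.5 and 89.1 TPM (0.88), Tlr3 (0.85), and the HIN-200 genes Ifi203 (1.04) and Ifi204 (0.88). The gene of cGAS (Mb21d1), that of STING (Tmem173) and Mavs differed by 0.11, 0.09 and 0.21 and did not pass. Ifih1 (MDA5) was listed at 0.

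**Figure D3:**
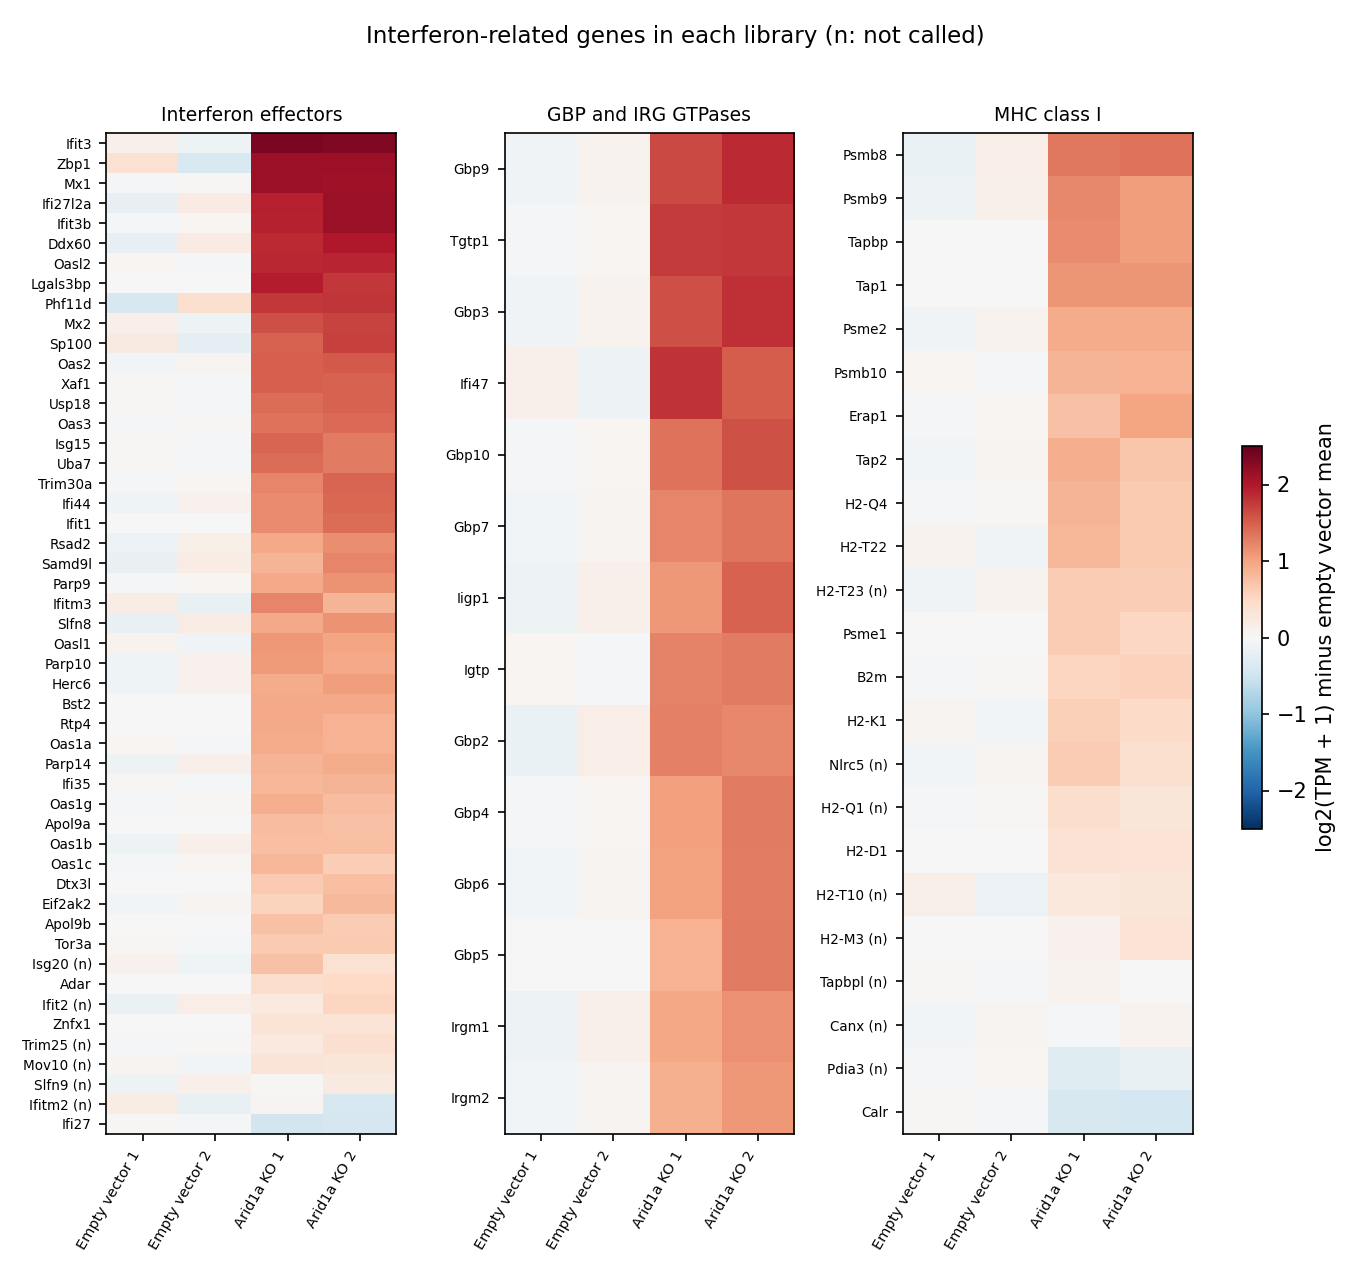
Interferon effectors, GBP and IRG GTPases and MHC class I genes (rows) in each of the 4 libraries (columns); colour is log2(TPM + 1) minus the mean of the empty vector libraries, and n marks genes that were not called. The columns of the knockout libraries are red for most rows, with Ifi27 and Calr among the few in blue.

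Mitotic genes were lower by a small amount. All 50 tested genes of mitosis had differences below 0, from -0.64 for Ndc80 to -0.02, with a median of -0.27, while 52.5% of all genes tested were below 0. Of the 50, 10 fell and 0 rose by limma, against 1.89% lower over all genes. The median was -0.30 in knockout library 1 and -0.25 in knockout library 2, and the summed level of the 50 genes was 7145 and 7465 TPM with the empty vector and 5972 and 6280 after knockout. Ndc80, which joins kinetochores to microtubules, went from 72.6 and 85.2 to 48.8 and 51.6 TPM (-0.64 ± 0.09, SE, limma adjusted p of 0.0282). Kif22, a chromosome-arm kinesin, went from 113 and 105 to 75.2 and 78.6 TPM (-0.50), the spindle protein Nusap1 from 101 and 115 to 74.3 and 79.4 TPM (-0.48) and the kinesin Kif20a from 162 and 149 to 119 and 118 TPM (-0.39). Both knockout libraries lay below both empty vector libraries in each of these genes, as in all called falls. The kinase Plk1 and the cyclin Ccnb1 fell by 0.30 and 0.29, and Mki67, the proliferation marker, differed by -0.28 without passing. The calls were not stable in number: limma called 0 of the 50 without any one of the 4 libraries, without the filter on low values, and without the trend of the variance on the level.

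The genes of DNA replication differed less. Of 48 tested, 41 were below 0, with a median of -0.12, and only Rrm1, the large subunit of ribonucleotide reductase, passed, at 217 and 232 TPM with the empty vector and 174 and 181 TPM after knockout (-0.34). The cell cycle inhibitors and p53 targets had a median of 0.12, with 3 rises of 29 (10.3%, against 4.54% higher over all genes). These were Sesn1 (0.72) and Ddit4 (0.74), which restrain mTORC1, and Aen (0.32), a nuclease induced by p53. Cdkn1a (p21) was at 70.9 and 69.3 TPM with the empty vector and 76.6 and 64.1 TPM after knockout, with overlapping groups. Myc was at 44.6 and 43.3 TPM and 52.3 and 56.3 TPM, a difference of 0.30 that did not pass, and of 34 nucleolar and MYC-related genes 1 rose, Mxd4 (0.61), an antagonist of MYC.

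The windows of Ndc80 and Kif22 are shown because these had the largest changes among the called mitotic genes. They were searched for TTTGAA, for the cell cycle homology region, and for CCAAT, the NF-Y box. Both elements are known to time mitotic promoters, but a match to the letters is not a measured site. The window of Kif22 holds 2 matches to TTTGAA and 2 to CCAAT. The window of Ndc80 holds 1 match to TTTGAA and 0 to CCAAT. Capitals mark both motifs on either strand (TTCAAA and ATTGG on the printed strand are matches on the other strand).

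Ndc80, chr17:71526808-71527107, GRCm38.p6, minus strand: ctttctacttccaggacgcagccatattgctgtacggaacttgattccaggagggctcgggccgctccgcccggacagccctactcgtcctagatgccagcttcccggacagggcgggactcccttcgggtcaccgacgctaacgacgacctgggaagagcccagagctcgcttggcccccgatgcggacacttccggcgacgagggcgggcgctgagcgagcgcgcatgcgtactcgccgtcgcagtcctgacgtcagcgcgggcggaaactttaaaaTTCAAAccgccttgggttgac

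Kif22, chr7:127042371-127042670, GRCm38.p6, minus strand: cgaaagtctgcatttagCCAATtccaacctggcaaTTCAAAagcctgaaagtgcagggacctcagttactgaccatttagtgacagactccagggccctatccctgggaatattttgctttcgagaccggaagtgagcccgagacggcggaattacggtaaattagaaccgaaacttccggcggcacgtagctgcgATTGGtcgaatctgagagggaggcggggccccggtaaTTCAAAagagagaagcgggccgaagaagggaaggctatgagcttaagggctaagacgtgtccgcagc

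Of 44 windows of the mitotic genes, 79.5% held TTTGAA and 77.3% held CCAAT, against 17.9% and 37.4% of all windows. Among all genes called lower the shares were 13.3% and 40.8%, and among the genes tested 12.1% and 38.4%.

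**Figure D4:**
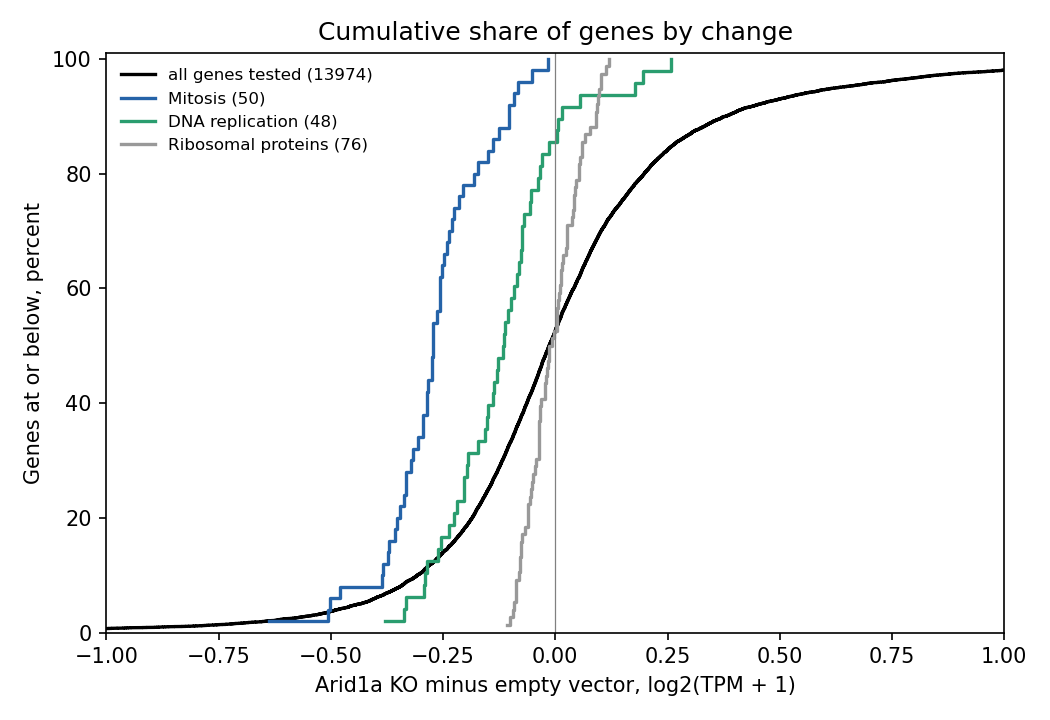
Cumulative share of genes (y axis, percent) at or below a given change (x axis, knockout minus empty vector, log2(TPM + 1)) for all genes tested and for mitosis, DNA replication and ribosomal protein genes. The line of the 50 mitotic genes lies wholly left of 0, that of replication is shifted less, and that of the 76 ribosomal proteins rises steeply around 0.

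Several keratins of simple epithelium and of basal or stratified epithelium were higher after knockout. Of 6 luminal or simple keratins tested, 4 rose, and of 5 basal ones 3 rose by limma, with medians of 1.64 and 1.32. The basal median was 0.88 in knockout library 1 and 1.32 in knockout library 2, each against the empty vector mean, and 0.85 between the libraries 1 alone. Krt4 was counted with the luminal or simple keratins, although it is a keratin of stratified epithelium. Besides Krt8 and Krt4, Krt7, the most abundant of those called in that list, went from 49.8 and 41.9 to 125 and 118 TPM (1.39). Krt19 went from 0.322 and 0.0916 to 3.67 and 3.25 TPM (1.89). Krt6a, a keratin of wounded and stratified epithelium, was already at 300.5 and 288 TPM and rose to 542 and 503 TPM (0.82), and Krt15 and Krt16 rose from under 1 TPM by 1.46 and 1.32. Krt36, Krt15 and Krt19 stand next to each other on chromosome 11 (100102012 to 100145926). Both knockout libraries were above both empty vector libraries for all of these genes, as for all called rises. Krt14 and Krt17 were high in knockout library 2 alone and did not pass. Krt5, a basal keratin, had 11 reads in that library and 0 in the others. Trp63, a basal marker, had 1 and 5 reads with the empty vector and 9 and 5 after knockout. Neither Krt5 nor Trp63 reached the level at which genes were tested. Without either knockout library, 2 of the luminal keratins were called, and without either empty vector library 3.

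Epithelial adhesion and mesenchymal genes did not follow the keratins. Of 25 adhesion genes 2 rose and 2 fell, with a median of -0.03. Cldn1, a tight junction claudin, went from 4.47 and 4.199 to 19.3 and 22.2 TPM (2.03), and Grhl1, a transcription factor of epithelial barriers, rose by 0.58. Pkp2, a desmosomal plakophilin, fell from 107 and 107 to 67.96 and 72.7 TPM (-0.60). Of 15 mesenchymal genes, Fn1, Twist2 and S100a4 rose and Vim fell (26.7% called). S100a4, a calcium-binding protein linked to motility, went from 51.5 and 49.8 to 132 and 117 TPM (1.28), the transcription factor Twist2 from 53.1 and 57.7 to 75.2 and 86.99 TPM (0.54), fibronectin Fn1 from 876 and 919 to 1190.1 and 1249.7 TPM (0.44) and Vim from 729 and 761 to 608 and 607 TPM (-0.29). Their median was -0.29 with all libraries and 0.05 between the libraries 1 alone. Of the list, Col1a1, Col1a2, Col3a1, Col5a2 and Acta2 were higher in libraries 2 than in libraries 1 of both groups, and their part in this change was not tested. For the 14 fibroblast and muscle markers the median was -0.46, 0.11 between libraries 1 and -0.96 between libraries 2, with 0 calls by limma.

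Several androgen or prostate genes were higher. Of 18 tested, 5 rose and 1 fell (33.3% called, against 6.43% over all genes), with a median of 0.25. The luminal factor Gata3 went from 104 and 107 to 144 and 148 TPM (0.47). Mme rose from 1.82 and 1.82 to 15.9 and 19.2 TPM, Steap4, a metalloreductase, from 2.43 and 3.096 to 7.398 and 6.32 TPM (1.06) and the kinase Sgk1 by 0.42. Slc45a3 (prostein) fell from 13.8 and 13.2 to 7.55 and 7.395 TPM (-0.77). The androgen-induced Fkbp5 was at 489 and 501 TPM and 526 and 542 TPM (0.11), Foxa1 differed by 0.01, and neither passed. Of 14 neuroendocrine genes a single one, Ncam1, was high enough to test, with a difference of 0.32 that did not pass.

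Most genes of the cytokine list were higher after knockout, and a few were lower. Of 29 cytokines, chemokines and inflammatory effectors tested, 25 had differences above 0 and 4 below, with a median of 0.53. By limma 8 rose and 2 fell (34.5% called, against 6.43% over all genes). The list includes chemokines that the study picked from its own samples, so its direction is not independent evidence. Besides Cxcl15, the alarmin Il33 went from 2.04 and 2.86 to 12.3 and 11.1 TPM (1.89), Ccl5, which attracts T cells, from 48.9 and 49.95 to 99.6 and 119.9 TPM (1.13), and Cxcl10, a CXCR3 ligand induced by interferon, from 12.9 and 12.7 to 28.6 and 24.3 TPM (0.98). Cxcl1, a CXCR2 ligand, went from 13.1 and 13.03 to 20.5 and 23.1 TPM (0.69) and Ptgs2 (cyclooxygenase 2) rose by 0.78. For each of these the knockout libraries were both higher, as for all called rises. Csf3, the granulocyte growth factor G-CSF, fell from 3.92 and 3.93 to 1.06 and 0.625 TPM (-1.43). Lcn2, an acute-phase protein rather than a cytokine, fell from 99.4 and 101 to 33.05 and 32.8 TPM (-1.58). Cxcl5 was at 19.3 and 20.3 TPM and 24.3 and 26.8 TPM (0.35) and Cxcl2 at 2.11 and 0.718 TPM and 3.798 and 3.64 TPM (1.03), and neither passed.

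Of 31 genes of the NF-kB pathway 1 rose and 2 fell, with a median of 0.02, and this share of 9.68% is near the 6.43% called over all genes. Tnfaip3, the A20 ubiquitin editor that restrains the pathway, had both knockout libraries, at 44.4 and 45.6 TPM, below both empty vector libraries, at 68.3 and 72.5 TPM (-0.63). Nfkb2, the p100 subunit, fell by 0.43 and the TNF receptor Tnfrsf1a rose by 0.44. Rela, Nfkb1 and Nfkbia did not pass, with differences of -0.23, 0.19 and 0.23. Of 17 AP-1 and immediate early genes 2 were called (11.8%, against 6.43% over all genes), and both fell, Fosb (-0.92) and Fosl1 (-0.41). Fosl1, an abundant AP-1 subunit of carcinoma cells, was at 325 and 319 TPM with the empty vector and 243 and 241 TPM after knockout. The AP-1 letters TGANTCA were in 23.3% of the 43 windows of the cytokine list and 15.4% of the 39 of the NF-kB list, against 7.81% of all windows, 5.28% of the windows of the genes tested, and 9.63% and 9.44% of those of the genes called higher and lower.

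**Figure D5:**
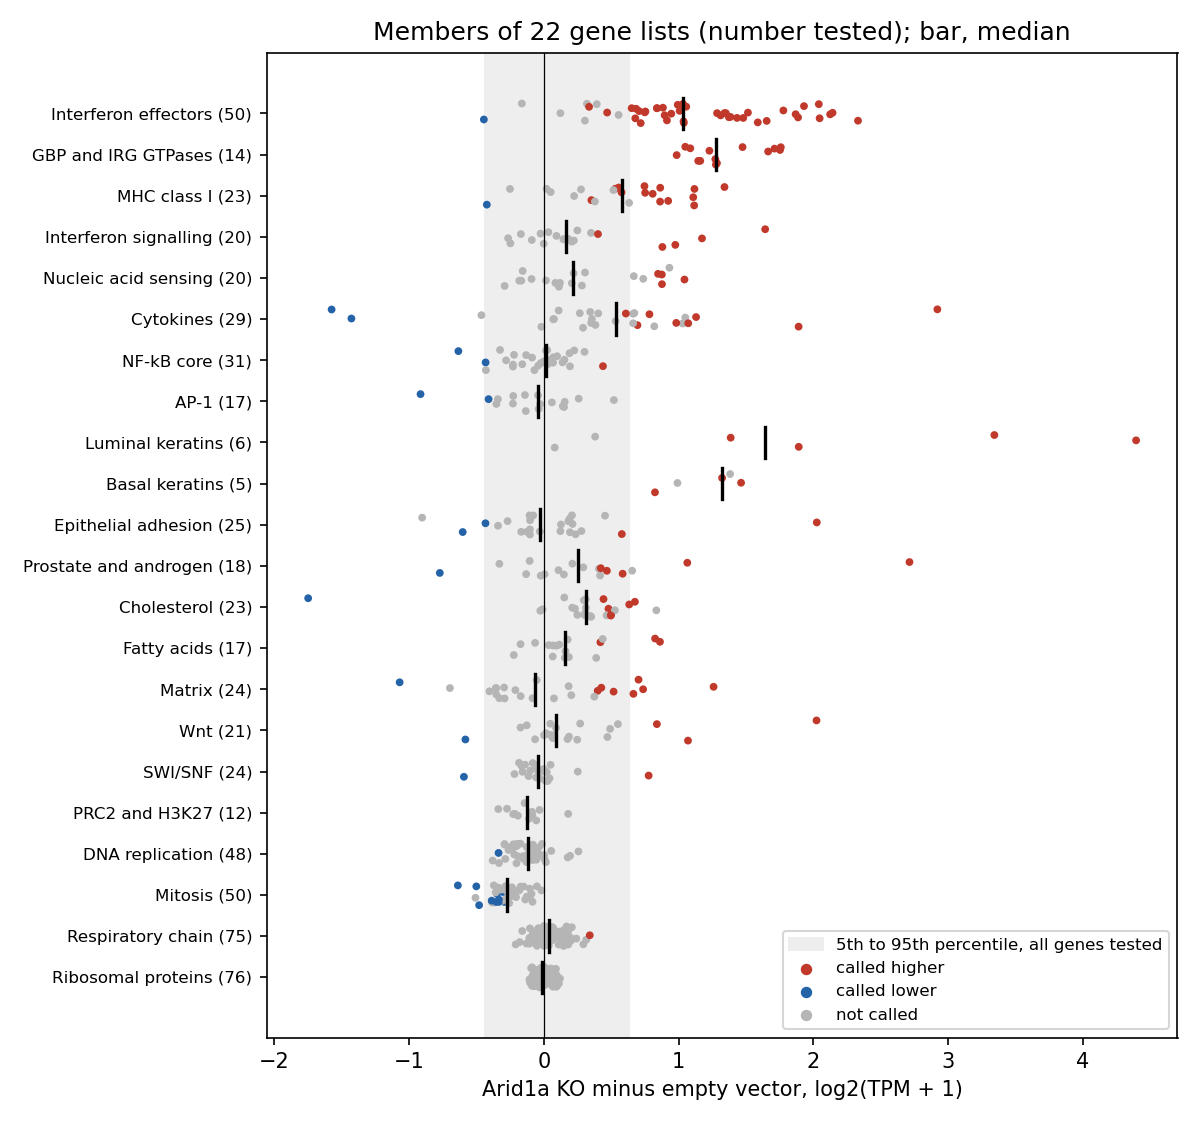
Change of each tested member (points) of gene lists (rows, number tested in brackets), as knockout minus empty vector on the log2(TPM + 1) scale; black bars are list medians, colours mark calls and the grey band spans the 5th to 95th percentile of all genes tested, -0.44 to 0.63. The medians of the interferon effectors, the GTPases and the keratins lie right of the band, and those of the other lists plotted lie inside it; the fibroblast and muscle markers, among other lists, are not plotted.

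In metabolism, several enzymes of cholesterol synthesis were higher. Of 23 genes tested, 6 rose and 1 fell (30.4% called, against 6.43% over all genes), with a median of 0.31. The summed level of the list was lower, however, at 1699 and 1688 TPM with the empty vector and 1324 and 1321 TPM after knockout. Among the risers were Pmvk (0.44), a kinase of the mevalonate pathway, and Cyp51 (0.68), Msmo1 (0.50) and Dhcr7 (0.50), which act on sterols. Of 17 fatty acid genes the desaturases Scd1 (0.86) and Scd2 (0.42) and the acyl-CoA synthetase Acsl1 (0.83) rose (17.6% called). The median of the list was 0.16.

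Energy metabolism and translation differed little. Among 76 ribosomal protein genes limma called 0, and their differences ran from -0.11 to 0.12 with a median of -0.01 that changed sign when a library was left out. Of 75 respiratory chain genes 1 rose, Sdhb (0.34), with a median of 0.04. Of 30 genes of glycolysis and hypoxia 2 rose and 2 fell (13.3% called, against 6.43% over all genes). The aldolase Aldoc (1.04) and Vegfa (0.41), which promotes vessel growth, were higher, and Pfkfb3 (-0.63), which activates glycolysis, and the muscle phosphofructokinase Pfkm (-0.43) were lower. Of 31 glutathione and NRF2 genes 5 rose and 4 fell (29.0% called). The glutathione transferases Gstm1 and Gstm2 rose by 0.75 and 0.97, and the dehydrogenase Aldh3a1 by 0.80, while Mgst2, a microsomal one, fell from 96.9 and 93.1 to 47.5 and 53.96 TPM (-0.89). Of 25 genes of the unfolded protein and amino acid responses 4 rose and 3 fell (28.0% called). Chac1, which degrades glutathione under ATF4, rose from 28.7 and 28.3 to 50.2 and 49.4 TPM (0.79) and Herpud1, of degradation at the endoplasmic reticulum, by 0.47, while the folding factors Creld2 and Sdf2l1 fell by 0.51 and 0.48.

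Signalling pathways showed single genes with large changes rather than shifts of whole lists, whose medians lay between 0.05 and 0.23. The share of genes called was larger in each of these lists than the 6.43% called over all genes. The lists are short, however, with 9 to 29 genes tested, and were given no test. In the Wnt pathway (3 rises and 1 fall of 21) the ligand Wnt4 went from 15.4 and 14.1 to 63.8 and 62.4 TPM (2.02 ± 0.07, SE, limma adjusted p of 0.00144) and the ligand Wnt5a from 11.8 and 12.2 to 22.97 and 30.1 TPM (1.07). The coreceptor Lrp5 rose by 0.84 and the receptor Fzd2 fell by 0.58. Axin2 and Lef1, targets of canonical Wnt signalling, were at or near 0 in all libraries. In the EGF family (3 rises and 1 fall of 17) the ligand betacellulin, Btc, went from 1.86 and 1.44 to 5.09 and 6.54 TPM (1.36), the feedback inhibitors Errfi1 and Dusp4 rose by 0.78 and 0.68, and the receptor Erbb3 fell from 9.698 and 9.16 to 5.297 and 5.53 TPM (-0.70). In the insulin-like growth factor axis (2 rises of 9) Irs2, an adaptor of the receptor, rose by 0.63 beside Igfbp5. In the TGF-beta family (4 rises and 1 fall of 29) the ligand Tgfb3 rose from 32.3 and 29.2 to 60.3 and 51.6 TPM (0.84), its coreceptor Tgfbr3 by 0.64, the latency protein Ltbp1 by 0.30 and the target Ctgf by 0.41, while Id2, an inhibitor of helix-loop-helix factors, fell by 0.41. In the Notch pathway (2 rises and 1 fall of 12) the receptor Notch2 (0.55) and the sheddase Adam10 (0.50) rose, and the glycosyltransferase Lfng fell by 0.49.

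Basement membrane proteins were among the matrix genes that rose. Of 24 tested, 7 rose and 1 fell (33.3% called, against 6.43% over all genes). Lama3 and Lamb3, the alpha and beta chains of a laminin of epithelial basement membrane, went from 4.00004 and 3.94 and 4.09 and 3.93 TPM to 7.08 and 7.49 and 7.55 and 6.77 TPM (0.74 and 0.70). In both genes the groups were apart, as in all called genes. Spp1 (osteopontin), a secreted ligand of integrins and CD44, went from 468 and 479 to 1106 and 1165 TPM (1.26) and was the most abundant riser of the list. Agrn (0.52), Lama5 (0.40), Lamb2 (0.43) and Col4a5 (0.67), also basement membrane proteins, rose less.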

How the data were processed

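RNA was measured by sequencing in 4 Myc-CaP libraries, 2 per group, grouped by the genotype given in the labels. Per the study's methods, RNA was extracted with Trizol, and paired-end reads were aligned to GRCm38/mm10 with TopHat2 and counted per gene, by strand, with HTSeq-count. The submitters' processing notes name HISAT2, HTSeq and DESeq2, so the aligner is not settled, and versions are not given in the sources used here. The authors deposited TPM values (per gene length, summing to 1000000 in each library). The gene lengths and annotation behind them are not stated. The same values in the per-sample tables and the series table were compared, and 0 differed. The table also carried 27 symbols turned into dates, kept as they are.

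Whole reads were recovered from the TPM values. RefSeq miRNA hairpin lengths gave the value of 1 read times length, and for each gene the shortest length that made all 4 values whole was taken, within 0.0005 reads. All 25200 genes above 0 came out whole. Where the reads of a gene share a factor the true number is a multiple, so reads per gene are lower limits and depths are estimates.

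Values were transformed to log2(TPM + 1), genes with a mean of at least 0.5 TPM were tested with limma 3.58.1 (lmFit, eBayes with a trend) in R 4.3.3 without covariates, and two-sided p-values were adjusted by Benjamini-Hochberg over all 13974 genes. Calls are adjusted p-values under 0.05. An exact permutation test of 2 against 2 cannot go below 0.333. The scripts were tested on simulated data. Alternatives changed the pseudocount, the filter, the scaling, the variance trend and the libraries, and added a replicate block. A limma-voom fit to the recovered reads was added after seeing the data.

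The 15 largest rises and falls among called genes with a mean of at least 5 TPM and separated groups are named, then up to 4 members per list. Unnamed models, miRNAs and date-like symbols were left out, and other examples were chosen after their values were seen. The genes to examine and the 37 lists were written with earlier results of these data known, and 5 lists after the values were seen. Lists were given no test. Some genes are not reported here, though counts and medians include them. Tested genes were matched to RefSeq by symbol (12166) or synonym (452), and 1356 were not matched. Promoter windows of 250 bases before to 50 after a start and their sequence are from RefSeq on GRCm38.p6. Gene coordinates are those of GENCODE M21 where a single gene is placed, and of RefSeq for runs of genes.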

Additional observations from a re-analysis of the deposited data

How the results depend on the processing

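The number of genes called depended on the settings more than their direction did: in each of the 13 alternatives all main calls that were tested kept their sign. The 899 calls became 358 without the filter on low values, 451 without the variance trend, 1550 with limma-voom on recovered reads (chosen after seeing the data, 61.4% of them higher against 70.6%) and 47 to 76 with a library left out, where a group of 1 is assumed to vary like the other. The split between higher and lower was 284 and 74 without the filter, 359 and 92 without the trend and 952 and 598 with limma-voom. Another pseudocount, a minimum mean of 5 TPM, quantile or median-ratio scaling and removal of short noncoding RNA gave 896 to 1002. The count by the study's thresholds was 861 to 1011 except with a minimum mean of 5 TPM, where it was 472.

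Calls among GBP and IRG genes were 7 without the filter, 9 with a minimum mean of 5 TPM and 1 to 2 with a library left out. Those of MHC class I were 7 without the filter, 6 without the trend and 0 to 2 with a library left out. Effectors ranged from 6 to 13 and luminal keratins from 2 to 3 when a library was left out. Mitosis calls were 0 without the filter, without the trend or with any library left out (0 to 0), and 28 with limma-voom.

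Libraries of the same number share only that number in the labels. Their deviations from the group means correlated at 0.19, and the second principal component (28.6% of the variance) separated numbers 1 (14.8 and 17.1) from numbers 2 (-14.9 and -17.0), a hint from the data and not from the design. With the replicate block, 2771 genes were called, 1453 higher and 1318 lower, all 899 main calls among them, and 41 mitosis genes. With 2 libraries per group, genes of few reads limit what can be called.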

Other observations

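Further families were looked at after their values had been seen, and their counts are descriptions only. Acute-phase and plasma proteins split: of 16 tested, 4 rose and 4 fell. Orm1 and Lcn2 fell from 302 and 321 and 99.4 and 101 TPM to 125 and 128 and 33.05 and 32.8 TPM, while Itih2, a hyaluronan-binding plasma protein, rose from 15.96 and 16.03 to 60.996 and 68.3 TPM (1.95), Cp (ceruloplasmin) from 27.5 and 29.04 to 69.003 and 77.6 TPM (1.34) and Hp (haptoglobin) from 2.03 and 2.12 to 7.74 and 7.92 TPM (1.52). Of 10 genes of the Ly6 and uPAR family 5 rose and 1 fell. Ly6e, Ly6a and Ly6c1, neighbours on chromosome 15, went from 138 and 121, 109 and 110.0 and 19.8 and 21.4 TPM to 292 and 255, 329 and 337 and 90.4 and 97.4 TPM, and Ly6a (Sca-1) is known as a marker of prostate progenitor cells. Of 20 retinoid genes 5 rose and 1 fell: the retinol carrier Rbp2 rose by 2.12 and the reductase Dhrs3, which returns retinal to retinol, by 1.99, while the related Rdh12 fell by 1.11. Aldh1a1, which makes retinoic acid and stood at 5989 and 6577 TPM, was at 5781 and 6245 TPM after knockout and did not pass.

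Of 14 genes of squamous differentiation 6 rose and 2 fell (57.1% called, against 6.43% over all genes). S100a14 went from 0.208 and 0 to 4.301 and 4.08 TPM (2.24) and Zfp750, a regulator of epidermal differentiation, from 0.598 and 0.6396 to 3.06 and 3.45 TPM (1.39), while the kallikreins Klk10 and Klk11 fell by 0.71 and 1.38. Of 41 lysosomal genes 7 rose and 2 fell, and Grn (progranulin) went from 587 and 548 to 953 and 872 TPM (0.68). Trdc, the constant segment of the T cell receptor delta chain, went from 8.25 and 9.85 to 30.7 and 31.1 TPM (1.67), with 80 and 84 reads against 280 and 261, although Cd3e, Cd3g and Ptprc had 0 or 1 read in each library. Of the 899 called genes, 673 were in none of the lists used here.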
